A study of Mus musculus with 9 samples.

Results

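The 177 long intergenic non-coding RNAs (lincRNAs) described here are the autosomal ones that were expressed in differentiating mouse embryonic stem cells, out of 5467 lincRNA rows and 54232 gene rows in the count table. A row was kept where GENCODE release M21 gives it the type lincRNA and where it reached 5 CPM (a counts-per-million value, scaled by the library's gene counts and not corrected for length) in at least 3 of 9 libraries. That rule, the values at its edge and the shares of counts use plain library totals, and every other level printed is CPM over library totals scaled by the TMM factors, which lay between 0.9409 and 1.068. H19, Meg3 and Mirg, which are imprinted, and 3 lincRNAs of the X chromosome (Xist, Ftx and Gm26617) passed that level and were left out by the same rule. Positions are given on GRCm38 (mm10), the build of that annotation. Of the 5467 rows, 2942 had no count in any library. The 3 groups, EBD2, EBD5 and EBD6, hold 3 libraries each. All were made from wild-type cells: mouse embryonic stem cells taken through embryoid body differentiation, in which cell aggregates form derivatives of the germ layers. What the number in each name counts is not stated. Trizol-extracted RNA was selected by its poly(A) tail on oligo-dT beads before library preparation with the KAPA RNA Hyperprep reagents. A HiSeq and a NovaSeq X instrument were used, and which library ran on which is not stated.

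LincRNAs are transcripts without a known protein that lie between protein-coding genes; most carry a cap and a poly(A) tail like messenger RNAs. A few have well-studied roles: some build nuclear bodies, some sequester proteins or microRNAs, some serve as the precursor of small nucleolar RNAs or microRNAs, and for others the act of transcription affects a neighbouring gene. Embryonic stem cells express a set of lincRNAs that is lost as the cells leave pluripotency, among them the pluripotency-associated transcripts (Platr genes). Most lincRNAs have no assigned function, and 139 of the 177 carried only a Gm number or a Riken clone name.

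Counts per library were 5453399 to 11703388. EBD2 replicates 1 and 2 agree within sampling noise (chi-square per gene 0.949), as do EBD6 replicates 2 and 3 (1.01, chi-square test over genes, p = 0.169), where the other pairs of these groups gave 2.23 to 4.31, so each of these pairs entered as 1 sample, giving 2 samples for EBD2, 3 for EBD5 and 2 for EBD6. EBD5 replicates 1 and 3 were also closer to each other (1.21) than the other EBD5 pairs were (2.77 and 3.4). They differed beyond sampling noise (p = 5.89e-66, chi-square test over genes) and stayed separate. Separate cultures are not stated for the replicates, and p-values therefore cover only the spread among these samples, which may be technical. Markers of pluripotent cells summed to 1350 to 1520 CPM in EBD2, 940 to 1020 CPM in EBD5 and 1020 to 1120 CPM in EBD6, and all 7 were detected in every group. Endoderm markers summed to 41.8 to 42.3, 2560 to 2650 and 1670 to 1730 CPM in the same order, and mesoderm markers to 3.86 to 7.27, 13.8 to 15.6 and 188 to 209 CPM, with 1 of 6 at 0 in EBD5. Trophoblast markers summed to 2.63 to 4.88, 16 to 19.2 and 147 to 151 CPM, with 2 of 5 at 0 in EBD2, and markers of feeder fibroblasts to 22.9 to 23.5, 14.8 to 20 and 41.3 to 49.6 CPM, with 1 of 5 at 0 in EBD2. The fibroblast markers went opposite ways: Thy1 averaged 22.4 CPM in EBD2 and 2.76 CPM in EBD6. Col1a1, Col1a2, Col3a1 and Postn were higher in EBD6 than in EBD2, with Col1a2 at 0.124 and 26.7 CPM in EBD2 and EBD6. In such bulk samples fewer cells of a type and less RNA per cell cannot be told apart.

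The level rule used the same values that are described here, so a member's high level in some group is no finding. Of the 177 lincRNAs, 81 reached 5 CPM in all 9 libraries, 33 reached it in EBD2 libraries alone, 5 in EBD5 libraries alone and 5 in EBD6 libraries alone. These 43 had to differ between groups to be included. Just inside the limit, the third-highest library held 5.17 CPM for C130071C03Rik and 5.27 CPM for C030034I22Rik and for 2610035D17Rik. Just outside it were G930009F23Rik and 1700057H21Rik at 4.99 CPM and A330035P11Rik at 4.96 CPM. The median member averaged 8.40 CPM over the 9 libraries, 100 members averaged under 10 CPM and 7 over 100 CPM. All 177 passed the filter on low counts and were tested among 16168 genes. Members had a median exon length of 2556 bases, against 1035 for all 5467 lincRNA rows, of which 2942 had no count. CPM is not corrected for length, so the level rule favoured longer transcripts and this difference is no finding. The 12172 protein-coding genes at the same CPM rule had a median of 4571.5 bases. Exons of 70 members overlapped an exon of another annotated gene, and since the strand setting of the counting is not given in the sources used here, reads of those pairs may not have been told apart.

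The lincRNAs took a larger share of all counts in EBD5 than in the other groups, and a handful of transcripts accounted for that difference. The members held 0.497 ± 0.024% of the counts in EBD2 (SD, n = 2), 1.38 ± 0.14% in EBD5 (n = 3) and 0.348 ± 0.013% in EBD6 (n = 2). A list of ribosomal RNA-like transcripts holds 3 members, AY036118, Gm26917 and Gm42418, which lie together at chr17:39843013-39848788. The exons of AY036118 and Gm42418 overlap each other and a gene annotated as ribosomal RNA, so their reads may not have been told apart. Together these members held 0.0568 ± 0.018%, 0.748 ± 0.13% and 0.0355 ± 6.9e-05% in EBD2, EBD5 and EBD6. Malat1, a nuclear-retained transcript of nuclear speckles, held 0.0941 ± 0.0064%, 0.286 ± 0.016% and 0.0746 ± 0.014%. With these 4 left out, the other 173 members held 0.346 ± 0.00047% in EBD2, 0.344 ± 0.0024% in EBD5 and 0.238 ± 0.001% in EBD6, so the EBD5 excess was gone and the EBD6 libraries were the lowest.

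**Figure D1:**
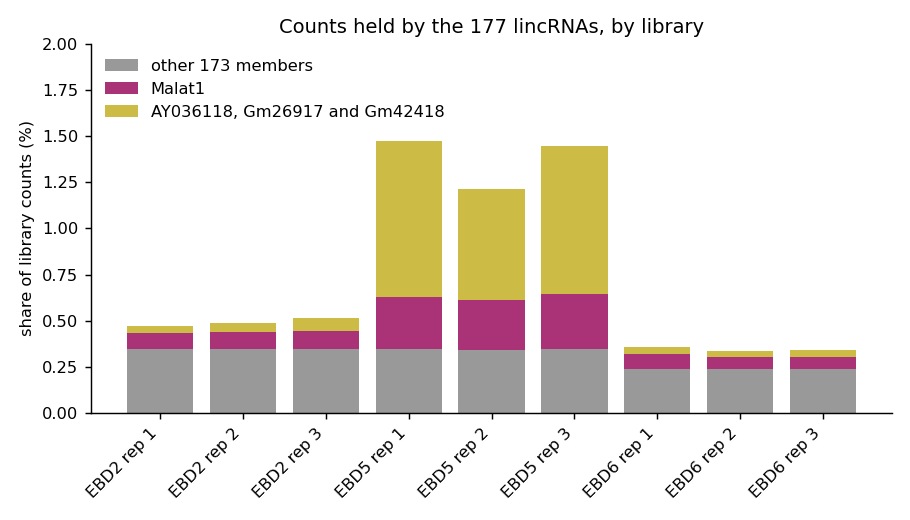
Share of each library's counts (%, vertical axis) held by the 177 lincRNAs, for the 9 libraries from EBD2 to EBD6, stacked as the ribosomal RNA-like members (top), Malat1 (middle) and the other 173 members (bottom). The bottom part is near 0.346% in EBD2 and 0.344% in EBD5 and near 0.238% in EBD6, while the top part is large only in the EBD5 libraries.

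AY036118 had 116, 184 and 357 CPM in the EBD2 libraries, 6022, 4278 and 5780 CPM in the EBD5 libraries and 94.1, 35.7 and 50.6 CPM in the EBD6 libraries. Its EBD5 libraries lay far above all others, and the EBD6 libraries all lay below the EBD2 libraries. Gm26917 had 140, 152 and 195 CPM in EBD2, 1469, 1298 and 1428 CPM in EBD5 and 147, 196 and 192 CPM in EBD6, with the EBD6 and EBD2 libraries overlapping. The same EBD5 libraries held more of several other RNA classes. Genes annotated as ribosomal RNA took 0.0196% of the counts in EBD2, 0.773% in EBD5 and 0.0228% in EBD6. Mitochondrial ribosomal RNA took 0.0149%, 0.536% and 0.00866% in the same order, and processed pseudogenes 0.245%, 0.99% and 0.155%. Clustered histone genes, whose messages mostly lack a poly(A) tail, took 0.0112%, 0.0449% and 0.00936%. The part of this shift in the lincRNA values was not tested.

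The group with the highest mean was most often EBD2, which the level rule fixed for the 33 members that passed through EBD2 alone, and the group with the lowest was most often EBD6. The mean was highest in EBD2 for 93 members (52.5%), in EBD5 for 63 (35.6%) and in EBD6 for 21 (11.9%). It was lowest in EBD2 for 32, in EBD5 for 38 and in EBD6 for 107 (60.5%). Among the 81 members at 5 CPM in all 9 libraries it was highest in EBD2 for 39, in EBD5 for 30 and in EBD6 for 12, and lowest in EBD2 for 10, in EBD5 for 18 and in EBD6 for 53. Over all 16168 genes tested, each group was the highest for 32.4% to 34.6% of genes and the lowest for 32.3% to 34.4%. Replicate samples lay close together, with a median coefficient of variation of 6.9% in EBD2, 10.7% in EBD5 and 10.2% in EBD6. The 3 comparisons below share libraries, so their counts are given side by side and not as separate evidence.

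**Figure D2:**
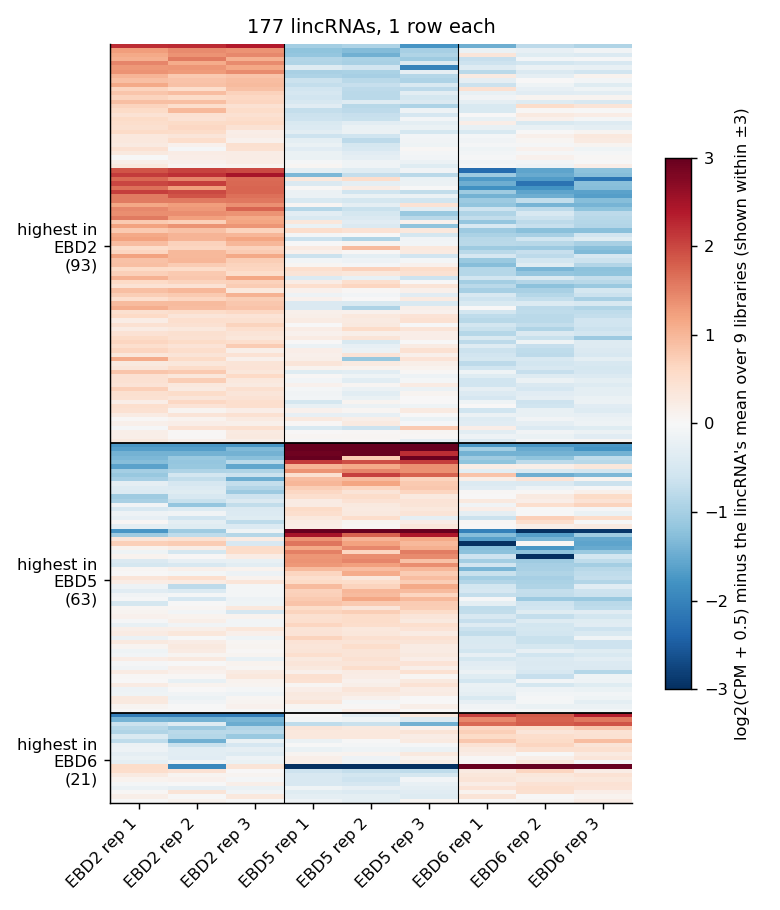
Level of each of the 177 lincRNAs (rows) in the 9 libraries (columns, EBD2 to EBD6), as log2(CPM + 0.5) minus the row's mean, with colours shown within ±3. Rows are grouped by the group with the highest mean, 93 for EBD2, 63 for EBD5 and 21 for EBD6, and the replicates of a group show like colours in most rows.

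In EBD5 compared with EBD2, more lincRNAs fell than rose. Of the 177, 48 were called higher (27.1%) and 78 lower (44.1%) by the edgeR quasi-likelihood test at a Benjamini-Hochberg adjusted p under 0.05. Over all genes tested, 34.9% were called higher and 35.1% lower. The median log2 fold change was -0.16 for the lincRNAs and -0.01 for all genes tested. Every EBD5 library lay above every EBD2 library for 59 members, beside 38.6% of all genes tested, and below for 81, beside 39.3%. Of the called members, 30 rose and 40 fell by more than 2-fold, and no like count was made over all genes tested. Among the 81 members at 5 CPM in all 9 libraries, which did not need a difference to be included, 22 were called higher and 30 lower.

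In EBD6 compared with EBD5, falls outnumbered rises by a wider margin. There were 25 members called higher (14.1%) and 91 called lower (51.4%), beside 36.9% higher and 33.3% lower of all genes tested. The medians were -0.46 and 0.04 on the log2 scale. Every EBD6 library lay above every EBD5 library for 28 members, beside 39.5% of all genes tested, and below for 98, beside 36.5%. Among the 81 members at 5 CPM in all libraries, 10 were called higher and 46 lower.

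In EBD6 compared with EBD2, 21 members were called higher (11.9%) and 110 lower (62.1%), where all genes tested gave 33.7% and 32.3%. The medians were -0.70 and 0.01 on the log2 scale. Library ranges did not overlap, with EBD6 the higher, for 27 members, beside 37.8% of all genes tested, and with EBD6 the lower for 117, beside 36.5%. Of the 12172 protein-coding genes at the same CPM rule, 37.3% were called higher and 32.6% lower. Antisense genes at that rule, 111 in all, gave 27% higher and 37.8% lower, and 104 processed transcripts, another non-coding type, gave 14.4% higher and 52.9% lower. Among the 81 members at 5 CPM in all libraries, 7 were called higher and 50 lower, and among the 107 members without exon overlap, 10 were called higher and 72 lower. In at least 1 of the 3 comparisons, 92.7% of the members and 90.7% of all genes tested were called, so that share was near the background.

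**Figure D3:**
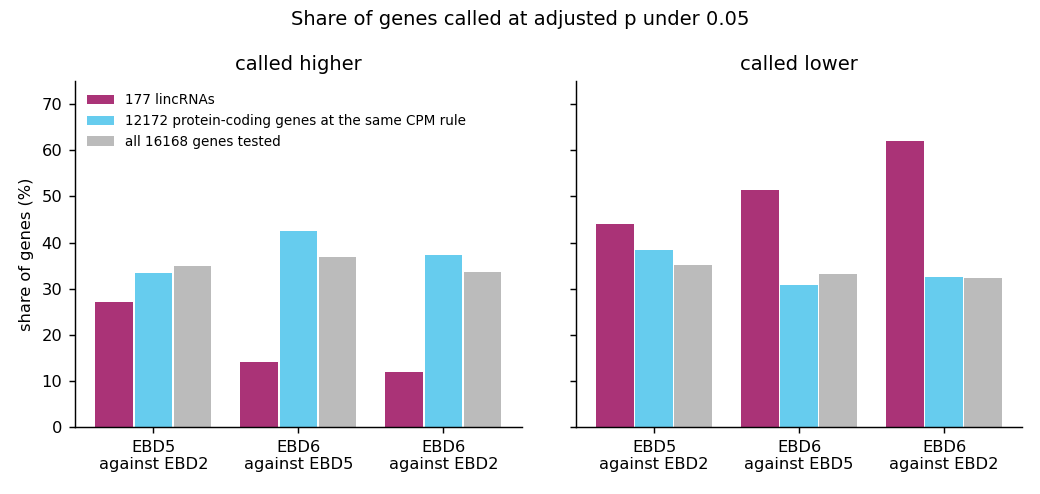
Share of genes (%, vertical axis) called higher (left panel) and lower (right panel) in each of the 3 comparisons, for the 177 lincRNAs, the 12172 protein-coding genes at the same CPM rule and all 16168 genes tested. The lincRNA share called lower is 44.1%, 51.4% and 62.1% from left to right, above the share of all genes tested in each comparison.

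Among lincRNAs of nuclear bodies and other broadly expressed lincRNAs, a list with 6 members here, 4 rose and 1 fell in EBD5 against EBD2, and 5 fell and none rose in EBD6 against EBD5. In EBD6 against EBD2, 1 rose and 4 fell. Of all genes tested, 34.9%, 36.9% and 33.7% were called higher in these comparisons, in the same order, and 35.1%, 33.3% and 32.3% lower. With 6 members these counts are small. The member that fell in EBD5 against EBD2 was Miat, which DESeq2 did not call (-0.65). Malat1 (chr19:5795690-5802672) had 846, 868 and 972 CPM in the EBD2 libraries, 3013, 2859 and 3189 CPM in the EBD5 libraries and 811, 612 and 597 CPM in the EBD6 libraries. Only the EBD5 libraries stood apart by several fold, and every EBD6 library lay below every EBD2 library. The log2 fold change was 1.72 ± 0.13 (SE) in EBD5 against EBD2 (adjusted p = 6.01e-07, edgeR) and -2.10 ± 0.13 in EBD6 against EBD5 (adjusted p = 1.97e-07, edgeR). In EBD6 against EBD2 it was -0.37 ± 0.13 (adjusted p = 0.0279, edgeR), a call that did not hold without EBD2 replicate 3, where it was -0.28.

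Neat1, the scaffold of paraspeckles and the neighbour of Malat1 on chromosome 19, did not share that pattern. It had 124, 117 and 130 CPM in EBD2, 122, 121 and 133 CPM in EBD5 and 109, 103 and 105 CPM in EBD6. The EBD5 and EBD2 libraries overlapped, and the EBD6 libraries were slightly lower. Its log2 fold change was 0.01 ± 0.07 in EBD5 against EBD2 (adjusted p = 0.937, edgeR) and -0.24 ± 0.07 in EBD6 against EBD5 (adjusted p = 0.0075, edgeR). The call in EBD6 against EBD2, at -0.23 ± 0.07, was lost without EBD2 replicate 3, where it was -0.18, and in DESeq2, where it was -0.24.

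2900097C17Rik (chr2:156388065-156392979), the mouse Norad transcript, which binds Pumilio proteins and in mammalian cells guards chromosome number, had 28.2, 30.1 and 30.5 CPM in EBD2, 149, 162 and 152 CPM in EBD5 and 46.5, 42.0 and 39.2 CPM in EBD6. The 3 groups did not overlap. The log2 fold change was 2.38 ± 0.08 in EBD5 against EBD2 (adjusted p = 2.48e-09, edgeR) and 0.52 ± 0.09 in EBD6 against EBD2 (adjusted p = 0.00046, edgeR). 1700020I14Rik, known as Cyrano or Oip5os1 and needed for the decay of the microRNA miR-7, changed far less. It had 246, 248 and 269 CPM in EBD2, 321, 320 and 331 CPM in EBD5 and 196, 186 and 189 CPM in EBD6, with log2 fold changes of 0.33 ± 0.06 in EBD5 against EBD2 and -0.43 ± 0.07 in EBD6 against EBD2. Pvt1, which lies 47612 bp downstream of Myc on the same strand, had 16.6, 18.5 and 17.6 CPM in EBD2, 21.3, 24 and 21.5 CPM in EBD5 and 15.6, 16.7 and 15.9 CPM in EBD6. Its rise in EBD5 against EBD2 was 0.34 ± 0.11 on the log2 scale, a call lost without EBD2 replicate 3 or EBD5 replicate 2 (0.34 and 0.29) and in DESeq2 (0.36), while Myc fell by 0.92 in the same comparison. Miat, a nuclear transcript best known from neurons, had 11.5, 14 and 10.4 CPM in EBD2, 7.70, 6.50 and 7.91 CPM in EBD5 and 5.27, 7.17 and 6.64 CPM in EBD6.

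All 9 members on the list of pluripotency-associated lincRNAs fell in EBD6 against EBD2 by the edgeR test, although DESeq2 did not call Platr26 (-0.90). Platr26 reached 5 CPM in EBD2 libraries alone and so had to differ. In EBD5 against EBD2, 6 fell and none rose by edgeR, of which DESeq2 did not call Platr3 (-0.76), Platr4 (-0.33) and Platr20 (-0.43). In EBD6 against EBD5, 7 fell and 1 rose. Their median log2 fold changes were -0.44 in EBD5 against EBD2, -0.93 in EBD6 against EBD5 and -1.34 in EBD6 against EBD2, beside -0.16, -0.46 and -0.70 for the 177 lincRNAs. In EBD5 against EBD2, EBD6 against EBD5 and EBD6 against EBD2, 35.1%, 33.3% and 32.3% of all genes tested were called lower. For the 177 lincRNAs these shares were 44.1%, 51.4% and 62.1%. Called higher were 34.9%, 36.9% and 33.7% of all genes tested and 27.1%, 14.1% and 11.9% of the 177. The Platr genes were named in other work for falling as mouse embryonic stem cells differentiate, so their direction is no independent evidence. Of the list, 12 other lincRNA rows were below the 5 CPM rule, at 0 to 3.58 CPM over all libraries. Summed pluripotency markers, given above, were also highest in EBD2, but the single markers differed. In EBD6 against EBD2, Pou5f1, Sox2 and Utf1 were called lower and Klf4 higher (log2 fold change 1.49). Nanog, Zfp42 and Esrrb were not called. The part of these markers in the lincRNA values was not tested.

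The members of that list differed in which groups were low. Lncenc1 (chr13:97434970-97497007), which mouse studies tie to naive pluripotency and glycolysis, had 234, 231 and 259 CPM in EBD2, 269, 255 and 272 CPM in EBD5 and 132, 142 and 134 CPM in EBD6. The EBD5 and EBD2 libraries overlapped, and every EBD6 library lay below them. The log2 fold change was 0.11 ± 0.07 in EBD5 against EBD2 (adjusted p = 0.15, edgeR, called higher at 0.15 with 9 separate libraries) and -0.86 ± 0.07 in EBD6 against EBD2 (adjusted p = 1.95e-06, edgeR). Platr10 (chr3:75647446-75655731) likewise had 104, 102 and 109 CPM in EBD2, 99.4, 113 and 103 CPM in EBD5 and 38.3, 26.6 and 29.4 CPM in EBD6, a log2 change of -1.73 ± 0.11 in EBD6 against EBD5 (adjusted p = 2.85e-07, edgeR).

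Platr7 was low in both EBD5 and EBD6, with 25.9, 25.9 and 25.1 CPM in EBD2, 7.53, 6.50 and 4.14 CPM in EBD5 and 4.92, 6.72 and 5.36 CPM in EBD6. The EBD6 and EBD5 libraries overlapped, and the log2 fold change in EBD5 against EBD2 was -2.07 ± 0.19 (adjusted p = 2.65e-06, edgeR). Platr26 was the 1 member of the list that rose in EBD6 against EBD5, by 1.23 ± 0.29 on the log2 scale, with 6.26, 5.20 and 5.44 CPM in EBD2, 1.25, 1.17 and 1.32 CPM in EBD5 and 3.51, 2.24 and 3.04 CPM in EBD6. Platr23 fell in EBD5 against EBD2 and in EBD6 against EBD5, with 10.8, 11.7 and 12.6 CPM in EBD2, 4.84, 3.67 and 6.40 CPM in EBD5 and 1.76, 1.43 and 1.44 CPM in EBD6. The other 4, Platr3, Platr4, Platr20 and Platr22, changed by -1.74 to -0.69 on the log2 scale in EBD6 against EBD2. The call for Platr20 in EBD5 against EBD2 (-0.44) was lost without EBD2 replicate 3 and without any of the 3 EBD5 libraries, at -0.45 to -0.40. It was also lost with EBD5 replicates 1 and 3 as 1 sample (-0.44).

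**Figure D4:**
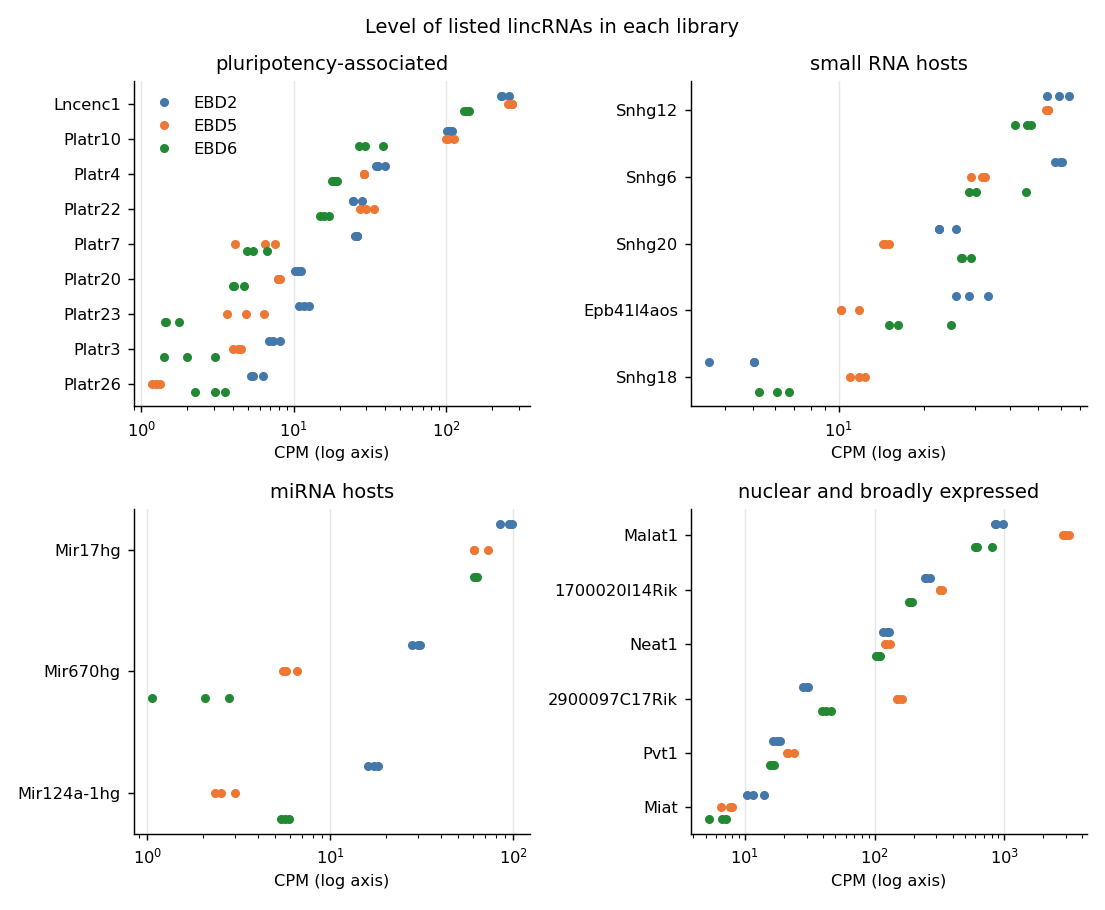
Level in CPM (horizontal log axis) of the members on 4 lists, with 1 point per library and EBD2, EBD5 and EBD6 drawn from top to bottom within each row. Lncenc1 and Platr10 have overlapping EBD2 and EBD5 points with lower EBD6 points, Platr7 and Mir670hg are low in EBD5 and EBD6, and Malat1 and 2900097C17Rik are highest in EBD5.

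Hosts of microRNAs and small nucleolar RNAs behaved in several ways, and since these libraries were made from poly(A) RNA, the levels are of the host transcript and not of the mature small RNA. All 3 members on the microRNA host list fell in EBD5 against EBD2 and in EBD6 against EBD2, where 35.1% and 32.3% of all genes tested were called lower. Mir17hg (chr14:115042879-115046727), host of the miR-17-92 cluster that acts in proliferation, had 84.7, 94.6 and 98.5 CPM in EBD2, 60.6, 60.8 and 72.7 CPM in EBD5 and 63.6, 61.7 and 60.7 CPM in EBD6. The EBD6 and EBD5 libraries overlapped below the EBD2 libraries, and the log2 fold change in EBD6 against EBD2 was -0.59 ± 0.09 (adjusted p = 0.000183, edgeR). Mir670hg fell in both of those comparisons and in EBD6 against EBD5, with 27.7, 30.7 and 30.01 CPM in EBD2, 5.73, 5.5 and 6.59 CPM in EBD5 and 1.05, 2.06 and 2.80 CPM in EBD6, a log2 change of -3.80 ± 0.21 in EBD6 against EBD2 (adjusted p = 7.25e-08, edgeR). Mir124a-1hg, host of the neuronal miR-124, had 16.1, 18.2 and 17.2 CPM in EBD2, 2.51, 2.33 and 3.01 CPM in EBD5 and 5.62, 5.38 and 5.92 CPM in EBD6, so that EBD6 lay between the others without overlap. The sums of neuroectoderm markers followed another order, with 142 to 151, 66.1 to 74.4 and 182 to 187 CPM, but the single markers differed. Pax6 averaged 52.8, 25.9 and 46.6 CPM and Sox1 60.75, 34.7 and 58.3 CPM, the order of Mir124a-1hg. Neither was called in EBD6 against EBD2. Tubb3, at 31.6, 4.998 and 34.2 CPM, was also lowest in EBD5, while Six3 and Zic1 were lowest in EBD2 and highest in EBD6.

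By position, 9 members held 19 annotated microRNA genes on their own strand, and 15 of these matched a mature sequence in RefSeq (GRCm38.p6). The let-7 host 6720427I07Rik, named after its values were seen, went the other way from the listed hosts in EBD5. It had 17.6, 18.9 and 19.5 CPM in EBD2, 32.3, 29.8 and 29.4 CPM in EBD5 and 15.5, 13.9 and 16.2 CPM in EBD6, with EBD5 above all others and a log2 change of 0.70 ± 0.10 in EBD5 against EBD2 (adjusted p = 0.000108, edgeR). C130071C03Rik, which holds Mir9-2, and E130102H24Rik, which holds Mir101a, were also named after their values were seen. C130071C03Rik changed by -0.89 ± 0.23 on the log2 scale and E130102H24Rik by -0.82 ± 0.24 in EBD6 against EBD2, and DESeq2 called neither (-0.91 and -0.82). For the 9 microRNA genes inside 6720427I07Rik and Mir17hg, 1 mature arm each is shown, to let the seeds be compared; the other arms are not shown, and capitals mark the seed, bases 2 to 8. The 3 let-7 sequences share 1 seed, as do miR-17-5p with miR-20a-5p and miR-19a-3p with miR-19b-3p.
mmu-let-7a-5p: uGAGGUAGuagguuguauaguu
mmu-let-7d-5p: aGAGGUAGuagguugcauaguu
mmu-let-7f-5p: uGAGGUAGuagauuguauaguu
mmu-miR-17-5p: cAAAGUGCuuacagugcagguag
mmu-miR-20a-5p: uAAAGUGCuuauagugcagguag
mmu-miR-18a-5p: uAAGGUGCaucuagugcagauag
mmu-miR-19a-3p: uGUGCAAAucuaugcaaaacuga
mmu-miR-19b-3p: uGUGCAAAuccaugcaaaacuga
mmu-miR-92a-3p: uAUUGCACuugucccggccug

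Of the 5 small nucleolar RNA hosts, 1 rose and 3 fell in EBD5 against EBD2, beside 34.9% and 35.1% of all genes tested. With 5 members such counts are small. In EBD6 against EBD5, 2 rose and 2 fell, beside 36.9% and 33.3%. In EBD6 against EBD2, 0 rose and 3 fell, beside 33.7% and 32.3%. In that last comparison Snhg20 (0.24) was called higher by limma-voom, with 9 separate libraries, with the replicate block (0.24 in each) and without EBD2 replicate 1 (0.31), EBD6 replicate 1 (0.28) or EBD6 replicate 2 (0.26), and Snhg18 (0.43) with 9 separate libraries (0.43) and without EBD6 replicate 1 (0.54). Snhg6 had 57.5, 59.8 and 60.6 CPM in EBD2, 29.0, 31.8 and 32.6 CPM in EBD5 and 45.5, 28.7 and 30.4 CPM in EBD6. EBD6 replicate 1 lay between the EBD2 libraries and the rest, and the log2 fold change was -0.93 ± 0.15 in EBD5 against EBD2 (adjusted p = 0.000203, edgeR). Snhg20 had 25.9, 22.4 and 22.5 CPM in EBD2, 15.1, 14.3 and 14.5 CPM in EBD5 and 26.9, 27.1 and 29.0 CPM in EBD6, lowest in EBD5. Snhg18 went the opposite way, with 5.07, 5.04 and 3.51 CPM in EBD2, 11.8, 11 and 12.4 CPM in EBD5 and 5.27, 6.10 and 6.72 CPM in EBD6, and a log2 change of 1.39 ± 0.20 in EBD5 against EBD2 (adjusted p = 8.98e-05, edgeR). Epb41l4aos had 28.6, 25.9 and 33.4 CPM in EBD2, 11.8, 10.2 and 10.2 CPM in EBD5 and 24.8, 15 and 16.2 CPM in EBD6; its fall in EBD6 against EBD2 (-0.66) was lost without EBD2 replicate 3, at -0.51.

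Of the developmental lincRNAs, Halr1 and Bvht reached the level rule. Halr1 (chr6:52102949-52113684), known in mouse stem cells from retinoic acid responses, had 18.8, 19.7 and 15.3 CPM in EBD2, 3.05, 3.50 and 3.77 CPM in EBD5 and 1.23, 0.538 and 1.52 CPM in EBD6. The groups did not overlap, and the log2 fold change was -3.98 ± 0.23 in EBD6 against EBD2 (adjusted p = 8.45e-08, edgeR). Halr1 reached 5 CPM in EBD2 libraries alone and so had to differ. Bvht, described in mouse cardiac commitment, had 5.75, 5.37 and 3.86 CPM in EBD2, 2.33, 2.17 and 2.07 CPM in EBD5 and 4.74, 6.28 and 4.56 CPM in EBD6, lowest in EBD5 with the EBD6 and EBD2 libraries overlapping. B830012L14Rik, from the imprinted Dlk1-Dio3 region, had 2.37, 2.93 and 1.58 CPM in EBD2, 10.4, 10.7 and 8.66 CPM in EBD5 and 5.97, 7.17 and 5.60 CPM in EBD6. Its log2 fold change was 1.45 ± 0.25 in EBD6 against EBD2 (adjusted p = 0.000401, edgeR). Dubr, described in mouse myoblast differentiation, rose by 1.78 ± 0.21 in EBD6 against EBD2, with 2.54, 2.11 and 2.46 CPM in EBD2, 6.45, 6.16 and 5.46 CPM in EBD5 and 7.90, 7.53 and 9.04 CPM in EBD6.

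Besides Halr1 and Mir670hg, the largest falls in EBD6 against EBD2 were in lincRNAs known only by a number or clone name. Gm40849 had 6.93, 6.50 and 5.44 CPM in EBD2, 1.08, 0.666 and 0.565 CPM in EBD5 and 0.351, 0.0896 and 0.0800 CPM in EBD6, a log2 change of -5.33 ± 0.47 (adjusted p = 2.4e-06, edgeR). Gm26564 had 8.79, 9.43 and 11.6 CPM in EBD2, 0.358, 0.833 and 0.753 CPM in EBD5 and 0.527, 0.269 and 0.400 CPM in EBD6, with the EBD6 and EBD5 libraries overlapping. Gm32885 (chr15:97157029-97167244) had 46.5, 47.3 and 52.0 CPM in EBD2, 4.48, 4.83 and 2.45 CPM in EBD5 and 3.16, 5.29 and 4.88 CPM in EBD6. Its log2 fold change was -3.63 ± 0.20 in EBD5 against EBD2 (adjusted p = 6.72e-08, edgeR), and the EBD6 and EBD5 libraries overlapped. C78283, Gm4349 and Gm41290 changed by -3.79, -3.70 and -3.33 on the log2 scale in EBD6 against EBD2. Gm40849, Gm26564, Gm4349 and Gm41290 reached 5 CPM in EBD2 libraries alone and so had to differ.

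Of the 8 largest rises in EBD5 against EBD2, 6 were at transcripts whose exons overlap another gene, and Gm42047 and Gm26917 were the others. Gm42047 (chr8:121833247-121841178) lies within the body of the longer gene Gm20388 on the same strand and had 8.46, 8.45 and 10.7 CPM in EBD2, 222, 222 and 231 CPM in EBD5 and 13.2, 9.32 and 7.60 CPM in EBD6. The EBD5 libraries stood far above the rest, at a log2 fold change of 4.60 ± 0.14 over EBD2 (adjusted p = 8.6e-10, edgeR), and the EBD6 and EBD2 libraries overlapped. Gm20388 had 130, 107 and 122 CPM in EBD2, 110, 122 and 134 CPM in EBD5 and 150, 157 and 164 CPM in EBD6, with no excess in EBD5. Gm49164 had 16.8, 16.5 and 23.2 CPM in EBD5 and no count in any EBD2 or EBD6 library. With a floor of 3 counts summed over a group, EBD5 was at least 111-fold higher than EBD2, and EBD6 at least 183-fold lower than EBD5. Gm43055 had 9.50, 12.8 and 5.65 CPM in EBD5, also with no count in EBD2 or EBD6. Gm49164 and Gm43055 reached 5 CPM in EBD5 libraries alone and so had to differ. An exon of Gm49164 overlaps the processed pseudogene Cbx3-ps6, and exons of Gm43055 overlap the protein-coding gene Ythdc1 and an antisense gene. Gm26825, whose exon overlaps another processed pseudogene, had 3.38, 4.07 and 3.69 CPM in EBD2, 81.3, 16.3 and 76.2 CPM in EBD5 and 4.21, 3.77 and 5.36 CPM in EBD6. EBD5 replicate 2 stood apart from the other EBD5 libraries and still lay above all EBD2 and EBD6 libraries. Of the 8 members that overlap a pseudogene, 4 were called higher and 2 lower in EBD5 against EBD2, beside 34.9% and 35.1% of all genes tested, and none higher and 6 lower in EBD6 against EBD5, beside 36.9% and 33.3%. With 8 members these counts are small.

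Members higher in EBD6 than in EBD2 were Gm26790, Gm26751, Gm26541, the row named Zfp469 and 1810058I24Rik, among others. Of these, 1810058I24Rik was also called higher in EBD5 against EBD2 (log2 fold change 1.19) and was not called in EBD6 against EBD5 (0.21). In the latter it was called without EBD6 replicate 2 (0.22) and with no filter on low counts (0.26). Gm26790 had no count in EBD2, 1.61, 1.17 and 2.07 CPM in EBD5 and 8.25, 6.99 and 10.2 CPM in EBD6, at least 50.8-fold higher in EBD6 than in EBD2. Its exons overlap those of Zfp507 on the opposite strand. Gm26751 had 5.92, 0.650 and 5.27 CPM in EBD2, no count in EBD5 and 48.3, 49.8 and 47.0 CPM in EBD6. EBD2 replicate 2 was far below the other EBD2 libraries, although replicates 1 and 2 of that group agree within sampling noise over all genes. Its exons overlap those of Nynrin, a gene with 59.7, 68.9 and 57.2 CPM in EBD2, 90.7, 84.8 and 86.2 CPM in EBD5 and 84.4, 113 and 112 CPM in EBD6, which was not at 0 in EBD5. Gm26541, which overlaps Mob3a, had 0.338, 0.325 and 0.351 CPM in EBD2, 1.61, 1.5 and 1.13 CPM in EBD5 and 5.44, 6.99 and 6.08 CPM in EBD6. The row named Zfp469, a zinc-finger gene by its name that this annotation types as a lincRNA, had 1.02, 1.3 and 0.351 CPM in EBD2, 0.896, 0.999 and 0.377 CPM in EBD5 and 7.20, 7.80 and 8.24 CPM in EBD6. Its log2 fold change was 3.30 ± 0.36 in EBD6 against EBD5 (adjusted p = 1.1e-05, edgeR). Gm26790, Gm26541 and the row named Zfp469 reached 5 CPM in EBD6 libraries alone and so had to differ. 1810058I24Rik, named after its values were seen, had 31.5, 33.8 and 33.4 CPM in EBD2, 73.8, 73.3 and 77.7 CPM in EBD5 and 98.0, 76.0 and 79.5 CPM in EBD6, a log2 change of 1.39 ± 0.11 in EBD6 against EBD2 (adjusted p = 9.06e-07, edgeR).

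LincRNAs often lie close to a protein-coding gene, and the position was compared with the change. Of the 177, 42 were divergent from the nearest protein-coding gene, 35 lay downstream of it and 38 upstream on the same strand, 20 were convergent, and 33 overlapped its body on the opposite strand and 9 on the same strand. For 20 divergent members the starts were within 1000 bp, and 19 of those neighbours were tested. Among them both genes were called in EBD6 against EBD5 for 11 pairs, of which 9 changed in the same direction, in EBD5 against EBD2 for 10 pairs, of which 5 did, and in EBD6 against EBD2 for 6 pairs, of which 4 did. Over the 92 members without exon overlap whose neighbour was tested, both were called in EBD6 against EBD2 for 55 pairs, 40 in the same direction and 15 in opposite directions. The counts were 28 and 20 of 48 pairs in EBD5 against EBD2, and 32 and 14 of 46 in EBD6 against EBD5. Across those genes, which are not independent replicates, Spearman's rho was 0.32 in EBD5 against EBD2, 0.38 in EBD6 against EBD5 and 0.44 in EBD6 against EBD2. Over the 56 tested pairs with exon overlap, 29 were called in both genes in EBD6 against EBD2, 13 in the same direction and 16 in opposite directions, with rho of 0.15. In that comparison rho was 0.33 over the 22 tested pairs more than 50000 bp apart, where 11 of 16 pairs called in both changed in the same direction. The 2 genes of a pair share libraries and depth.

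**Figure D5:**
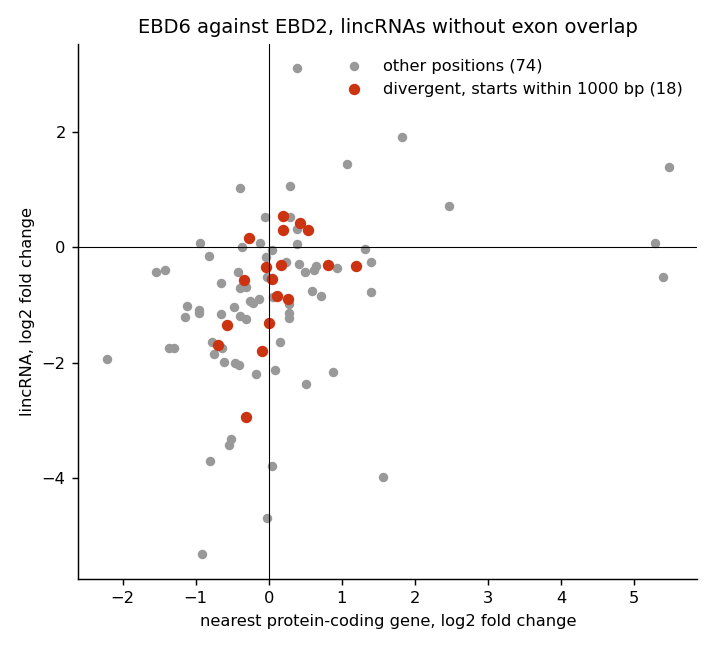
Log2 fold change in EBD6 against EBD2 of the lincRNA (vertical axis) and of its nearest protein-coding gene (horizontal axis) for the 92 members without exon overlap whose neighbour was tested, with divergent pairs within 1000 bp in red. Both genes were called in 55 pairs, of which 40 lie where the 2 changes have the same direction.

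Single loci showed both like and unlike changes, and the members of these loci that are on no list were named after their values were seen. Gm44751 lies 590 bp downstream of Ctsc, a lysosomal cathepsin gene, on the same strand. It had 1.52, 2.28 and 1.58 CPM in EBD2, 12, 13 and 15.4 CPM in EBD5 and 6.67, 6.36 and 7.28 CPM in EBD6. Ctsc had 46.2, 47.3 and 51.1 CPM in EBD2, 468, 433 and 499 CPM in EBD5 and 184, 164 and 160 CPM in EBD6, the same order of groups. Log2 fold changes in EBD5 against EBD2 were 2.90 ± 0.22 for Gm44751 and 3.26 ± 0.10 for Ctsc, and in EBD6 against EBD2 1.91 ± 0.24 and 1.82 ± 0.10. Reads of Gm44751 and of a Ctsc transcript extended downstream cannot be told apart in these counts.

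By Zfp281, a zinc-finger gene that acts in the exit from pluripotency, lie 3 members. Platr23 starts 251 bp from it in the divergent direction, and Gm19705 and Platr22 lie 40716 and 66158 bp downstream. Zfp281 itself had 232, 229 and 226 CPM in EBD2, 227, 246 and 235 CPM in EBD5 and 190, 180 and 179 CPM in EBD6, a log2 change of -0.31 ± 0.07 in EBD6 against EBD2. In that comparison Platr23 changed by -2.95 ± 0.27, Gm19705 by -1.24 ± 0.15 and Platr22 by -0.69 ± 0.12. In EBD5 against EBD2, Gm19705 changed by -1.29 ± 0.15 (adjusted p = 1.77e-05, edgeR), while Platr22 stood at 0.24 ± 0.11 (adjusted p = 0.0745, edgeR). Without EBD2 replicate 2 or EBD5 replicate 3, Platr22 was called higher, at 0.32 each. The difference between the 2 transcripts was not tested.

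At Jade1, Platr4, 2400006E01Rik and Gm40040 lie 27257 to 73340 bp away on the opposite strand. In EBD6 against EBD2 they changed by -0.99 ± 0.09, -1.23 ± 0.17 and -1.14 ± 0.21 on the log2 scale, while Jade1 rose by 0.28 ± 0.08. Gm12688, 1316 bp from the pluripotency gene Foxd3 in the divergent direction, had 8.96, 9.59 and 8.07 CPM in EBD2, 3.23, 2.5 and 3.77 CPM in EBD5 and 4.04, 3.68 and 3.76 CPM in EBD6. Foxd3 had 32.0, 37.4 and 29.1 CPM in EBD2, 9.32, 9.99 and 11.1 CPM in EBD5 and 11.24, 17.2 and 15.4 CPM in EBD6. Their log2 fold changes in EBD6 against EBD2 were -1.20 ± 0.22 and -1.15 ± 0.16. Gm12688 reached 5 CPM in EBD2 libraries alone and so had to differ. Gm38509, 119614 bp downstream of Sox2, changed by -1.08 ± 0.20 and Sox2 by -0.96 ± 0.09 in the same comparison.

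At Setd1b, a histone methyltransferase gene, AI480526 starts 527 bp away in the divergent direction and 4932422M17Rik ends 624 bp upstream on the same strand. AI480526 and Setd1b were both lowest in EBD5, at log2 changes of -1.30 ± 0.14 and -0.82 ± 0.10 against EBD2. 4932422M17Rik was lowest in EBD6, at -1.63 ± 0.17 against EBD2, where Setd1b rose by 0.35 ± 0.10. The exons of AI480526 and 4932422M17Rik overlap on opposite strands, so their reads may not have been told apart. Gm26735, which overlaps Sox4 on the opposite strand, had 52.3, 38.0 and 48.4 CPM in EBD2, 94.1, 122 and 106 CPM in EBD5 and 53.0, 24.9 and 24.8 CPM in EBD6. Sox4 had 109, 125 and 79.9 CPM in EBD2, 108, 70.1 and 112 CPM in EBD5 and 181, 200 and 196 CPM in EBD6, highest in EBD6, while Gm26735 was highest in EBD5. EBD6 replicate 1 held more Gm26735 than the other EBD6 libraries. In EBD6 against EBD2 the log2 fold change was -0.41 ± 0.27 (adjusted p = 0.199, edgeR), and without EBD6 replicate 1 it was -0.88 and called.

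Start regions of 70 members matched a RefSeq promoter (GRCm38.p6) whose start lay within 500 bp of the annotated one, taken as 250 bases before to 50 after the start. These promoters held a median of 9.5 CpG dinucleotides, beside 7 for all 32817 promoters and 14 for 20118 protein-coding promoters. Among the 37 members with at most 10 CpG, 1 rose and 32 fell in EBD6 against EBD2, at a median log2 change of -1.23. Among the 33 with more than 10, 3 rose and 21 fell, at a median of -0.55. Of all genes tested, 33.7% rose and 32.3% fell in that comparison, and of the 177 lincRNAs, 11.9% and 62.1%. Members that passed the level rule through EBD2 alone were not set apart here, and a link with CpG number was not tested. In EBD5 against EBD2 the medians were -0.44 and -0.29. The promoters of Lncenc1 (chr13:97434720-97435019, plus strand), with 4 CpG, and of Snhg18 (chr15:32244613-32244912, minus strand), with 31, are shown as examples of the 2 kinds, with each CpG in capitals.
Lncenc1: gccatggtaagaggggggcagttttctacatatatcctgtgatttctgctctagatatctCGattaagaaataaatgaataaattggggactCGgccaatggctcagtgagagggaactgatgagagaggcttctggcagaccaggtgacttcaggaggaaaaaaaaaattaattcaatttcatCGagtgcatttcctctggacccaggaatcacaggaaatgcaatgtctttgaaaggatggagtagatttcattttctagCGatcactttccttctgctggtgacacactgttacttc
Snhg18: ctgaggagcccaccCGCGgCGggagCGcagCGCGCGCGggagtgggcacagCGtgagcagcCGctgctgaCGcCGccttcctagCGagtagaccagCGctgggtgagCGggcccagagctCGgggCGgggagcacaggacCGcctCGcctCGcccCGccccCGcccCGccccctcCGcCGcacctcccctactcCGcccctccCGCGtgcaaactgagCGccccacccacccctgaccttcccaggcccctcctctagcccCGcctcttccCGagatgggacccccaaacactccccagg

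The octamer ATGCAAAT, the letters bound by POU factors such as Oct4, was found on either strand in 5 of the 70 member promoters (7.14%) and in 570 of the 32817 promoters (1.74%). The longer Oct-Sox composite was in none of the 70 and in 2 of all promoters. TATAAA was in 6 of the 70 (8.57%) and in 13.6% of all promoters. The 5 with the octamer were 2700038G22Rik, 4833407H14Rik, Gm10451, Gm20939 and Gm32856, with log2 fold changes of -0.05, -1.41, -1.06, -1.85 and -2.04 in that order in EBD6 against EBD2. A pair of them are near copies: the promoters of Gm20939 (chr17:94864651-94864950, plus strand) and Gm32856 (chr8:129263380-129263679, plus strand) matched at 270 of 283 aligned bases (95.4%), so the 5 promoters hold 4 separate sequences. They are shown because they belong to separate lincRNAs on 2 chromosomes, with the octamer in capitals.
Gm20939: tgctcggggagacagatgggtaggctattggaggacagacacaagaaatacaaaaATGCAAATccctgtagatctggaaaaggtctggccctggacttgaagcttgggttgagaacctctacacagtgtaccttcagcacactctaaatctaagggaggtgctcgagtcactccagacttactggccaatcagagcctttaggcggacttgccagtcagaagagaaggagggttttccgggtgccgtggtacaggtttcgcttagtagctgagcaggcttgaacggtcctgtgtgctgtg
Gm32856: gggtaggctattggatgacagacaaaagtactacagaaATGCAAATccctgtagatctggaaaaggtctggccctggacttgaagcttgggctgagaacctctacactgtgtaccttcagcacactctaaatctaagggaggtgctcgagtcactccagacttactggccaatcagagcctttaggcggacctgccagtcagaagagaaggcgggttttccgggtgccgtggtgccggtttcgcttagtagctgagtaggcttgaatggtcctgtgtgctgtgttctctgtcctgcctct

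Levels of that pair are uncertain where their transcripts share sequence, since reads could be split between them. Gm20939 had 22, 23.6 and 24.2 CPM in EBD2, 18.1, 29.2 and 18.6 CPM in EBD5 and 6.85, 6.72 and 6 CPM in EBD6, with the EBD5 and EBD2 libraries overlapping. Gm32856 had 10.7, 11.4 and 9.65 CPM in EBD2, 21.3, 17 and 18.5 CPM in EBD5 and 2.28, 2.78 and 2.48 CPM in EBD6, without overlap. Both were lowest in EBD6, at log2 changes of -1.76 ± 0.21 (adjusted p = 1.93e-05, edgeR) and -2.89 ± 0.18 (adjusted p = 1.96e-07, edgeR) against EBD5. EU599041, another member that was highest in EBD5 and lowest in EBD6, had 21.3, 23.3 and 30.01 CPM in EBD2, 44.4, 54.5 and 41.8 CPM in EBD5 and 7.90, 5.56 and 6.64 CPM in EBD6. BC002059 and Gm5165, both on chromosome 17, were the other pair of alike promoters, at 84.8% over 250 aligned bases, and changed by -0.43 ± 0.11 and -1.02 ± 0.11 in EBD6 against EBD2.

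GC content and exon length were related to the changes in some comparisons only. Over the 174 members outside the ribosomal RNA-like list, Spearman's rho between GC content and the log2 fold change was -0.35 in EBD5 against EBD2, 0.33 in EBD6 against EBD5 and -0.07 in EBD6 against EBD2. Between exon length and the log2 fold change rho was 0.32, -0.01 and 0.30 in the same order. These are across genes that share libraries, and their part in the counts of calls was not tested. Levels between genes are compared only per length: AY036118 averaged 2036 CPM per kb of exon over the 9 libraries, Malat1 219, Lncenc1 64.9 and Platr10 46.2, beside a median of 4.06 over the 177.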

How the data were processed

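The deposited values are the authors' expected counts: each is an estimate of a gene's reads, may be a fraction, and carries no scaling to depth. The submitters' processing notes list DESeq2 1.38.3, edgeR 3.40.2, RSEM 1.3.30, STAR 2.7.10a and cutadapt 1.18 beside the mm10 build, with no role or order. The annotation release and the strand setting were not given in the sources used here. Types, positions and symbols came from GENCODE M21, which held 54165 of 54232 IDs. A row naming no gene (at most 0.0157% of a library) was left out.

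Counts were rounded. Libraries of 1 group that agree within sampling noise (chi-square test of counts over genes with at least 20 counts) were summed, leaving 7 samples. Genes passing filterByExpr (16168) went into 1 fit with TMM scaling (printed levels are CPM over TMM-scaled totals; the 5 CPM rule and shares use plain totals) and 4 residual degrees of freedom, and the quasi-likelihood F test of edgeR 4.0.16 under R 4.3.3 was used, with p adjusted by Benjamini-Hochberg over all genes tested, with calls at an adjusted p under 0.05. The code was tested on simulated data. The SE of a log2 fold change is its size over the square root of F. Bounds against a group at 0 cover counting error only.

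The members and lists were chosen with earlier results of these data known; Mirt1 was taken off the microRNA host list because the annotation puts no microRNA gene in it. Genes named were the 8 largest called rises and falls per comparison without overlap, the 12 of highest mean CPM, role list members and neighbours, of which the text gives a subset, plus those said to be named after their values were seen, which include EU599041, 2700038G22Rik, 4833407H14Rik, Gm10451, Gm20939, BC002059 and Gm5165. Alternatives were DESeq2 1.42.0, its size factors, limma-voom 3.58.1, other filters, samples, members, thresholds and library sizes, a replicate block and leaving out each library.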

Additional observations from a re-analysis of the deposited data

How the results depend on the processing

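Falls outnumbered rises in all 3 comparisons under every alternative run. Without each library in turn, 45 to 52 members were called higher and 67 to 79 lower in EBD5 against EBD2, 19 to 27 and 83 to 91 in EBD6 against EBD5, and 20 to 26 and 99 to 110 in EBD6 against EBD2. Shares of counts were then 0.48% to 0.5% in EBD2, 1.33% to 1.46% in EBD5 and 0.339% to 0.35% in EBD6. A test against a fold of 1.5 left 43 lower in EBD5 against EBD2, 10 higher in EBD6 against EBD5 and 70 lower in EBD6 against EBD2. The 99 members at 10 CPM gave 41 lower in EBD5 against EBD2, 12 higher in EBD6 against EBD5, and 11 higher and 67 lower in EBD6 against EBD2. The 345 members at 2 CPM gave 84 higher and 151 lower in EBD5 against EBD2, 48 higher in EBD6 against EBD5, and 60 higher and 189 lower in EBD6 against EBD2. The 107 members without exon overlap gave 24 higher in EBD5 against EBD2, 13 and 57 in EBD6 against EBD5, and 10 and 72 in EBD6 against EBD2. These last 3 change the number of members counted.

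The share of counts was 0.448% in EBD2 and 0.314% in EBD6 with members at 10 CPM, 0.542% and 0.379% with those at 2 CPM, 0.44%, 0.629% and 0.313% in EBD2, EBD5 and EBD6 without the ribosomal RNA-like members, and 0.471% in EBD2 and 0.87% in EBD5 without the member with the most counts. With 9 separate libraries and the replicate number as a block, 52 and 80, 27 and 94, and 26 and 115 members were called higher and lower in the 3 comparisons. With EBD5 replicates 1 and 3 as 1 sample, these counts were 47 and 75, 24 and 89, and 21 and 108. Over the 13133 genes at 5 CPM in 3 libraries, same-numbered libraries correlated at -0.15 to 0.09 in their deviations from group means. No pairing by number was seen in these values. For the 70 members named by rule or afterwards, 4035 of 4190 values kept direction and side of the threshold, 125 lost the call, 30 gained one and 0 reversed. Members at a few CPM rest on few counts, so small changes were not detectable there.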

Other observations

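Several lincRNAs of the lists did not reach 5 CPM in 3 libraries and were not among the 177, and those given here were picked after their values were seen. Platr28 had 3.04, 2.60 and 2.11 CPM in EBD2, 0.179, 0 and 0.188 CPM in EBD5 and 0.176, 0.359 and 0.240 CPM in EBD6, and Otx2os1 had 2.88, 4.55 and 3.51 CPM in EBD2, 0.538, 0.666 and 0.377 CPM in EBD5 and 0, 0.628 and 0.400 CPM in EBD6. Both were highest in all 3 EBD2 libraries. Lhx1os had no count in EBD2, 3.05, 2.67 and 3.77 CPM in EBD5 and 1.40, 1.97 and 2.08 CPM in EBD6. 9030622O22Rik likewise had no count in EBD2, 3.23, 3.50 and 4.14 CPM in EBD5 and 2.81, 1.97 and 2.64 CPM in EBD6. Lncpint had 1.35, 1.14 and 1.23 CPM in EBD2, 5.02, 5.16 and 4.71 CPM in EBD5 and 1.76, 2.78 and 2.08 CPM in EBD6, with EBD5 above the other groups in every library. Hottip, Carmn, Platr2 and Platr30 had no count in any of the 9 libraries.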
